A study of Mus musculus with 91 samples.

Results

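Immediate early genes are switched on within minutes of synaptic activity without new protein synthesis, and they are widely used as markers of recently active neurons. Most encode transcription factors. Fos and Fosb pair with Jun or Junb to form the AP-1 factor, Egr1, Egr2 and Egr4 are zinc-finger factors of the early growth response family, Npas4 is a neuronal factor induced by calcium entry, and Arc encodes a protein of dendrites that acts in the trafficking of glutamate receptors. Nr4a1, an orphan nuclear receptor, belongs to the same class. The data set describes 10 such genes in the brains of wild-type (WT) mice and of their APP/PS1 littermates. The latter carry 2 transgenes that model Alzheimer's disease. Probes were taken by gene symbol, and the 10 genes were chosen with earlier results of these data known. Of 25697 probes on the Illumina bead array, 16814 carry a gene symbol, naming 12115 genes, and 10 of these probes name 9 of the 10 genes. No probe carried the symbol Nr4a1, which was not measured here. Npas4 had 2 probes, of which the dimmer passed detection on just 5 cortical arrays (of 45) and 8 from hippocampus (of 46) and was not tested. The probes of the other 8 genes and the brighter Npas4 probe passed the filter in both tissues.

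Frontal cortex and hippocampus of the left hemisphere were taken from 47 mice, 44 of which gave both tissues. WT mice given phosphate-buffered saline (PBS) contributed 12 arrays of each tissue, APP/PS1 mice given PBS 9, APP/PS1 mice given a control antisense oligonucleotide without a target (CON ASO) 13, and APP/PS1 mice given an oligonucleotide against CD33, an inhibitory receptor of microglia (CD33 ASO), 11 arrays of cortex and 12 of hippocampus. Every mouse, controls included, carried a ventricular cannula and an osmotic pump, was housed alone after surgery and was killed by cervical dislocation without anaesthesia at 22 weeks of age. Pumps released 50 µg of oligonucleotide per day for 14 days from 18 weeks. Both transgenes of this line are driven by a fragment of the Thy1 promoter, which is active in neurons. Replicates are separate mice, and tissue was collected on 4 days, coded 1 to 4, each of which held all 4 groups. The surgery day split the mice in the same way, so the 2 cannot be told apart.

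Between 12555 and 13905 probes were detected per array (detection p under 0.05). The Thy1 probe read between 14.80 and 14.93 (log2 signal) on every cortical array of the APP/PS1 PBS and CON ASO groups against 14.08 to 14.24 in WT, and cortical CD33 ASO replicate 3, at 14.10, went against its label. The hippocampal array of the same mouse, also CD33 ASO replicate 3, read 14.02. Leaving this mouse out changed no count of called genes among the 9. Whether the Thy1 probe reads the transgenes was not checked. Of the dissection markers, 6 of 6 tested striatal genes were lower and 6 of 7 CA1 and CA3 genes were higher in hippocampus. In bulk tissue, fewer cells of a type and less RNA per cell cannot be told apart, which holds for every value here.

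Promoter windows of 300 bases, from 250 before to 50 after each transcription start, were taken from a supplied table of RefSeq windows (build GRCm38.p6). Egr1 was left out by hand, so its promoter was not searched for motifs, and no window matched Arc. The other 8 of the 10 genes were matched by symbol. The windows of 5 of them are shown: those of Fos, Egr2, Egr4 and Junb, which varied together over arrays, and that of Jun, which did not vary with them. Each sequence is written 5′ to 3′ on the strand of its gene. Capitals mark matches, on either strand, to TGACG (the core of the cyclic AMP response element TGACGTCA, so the longer motif contains it), TGANTCA (the AP-1 site), GCGNGGGCG (the site of EGR factors), TATAAA (the TATA box), the CArG box bound by serum response factor, or the MEF2 site.
Fos, chr12:85473640-85473939, plus strand: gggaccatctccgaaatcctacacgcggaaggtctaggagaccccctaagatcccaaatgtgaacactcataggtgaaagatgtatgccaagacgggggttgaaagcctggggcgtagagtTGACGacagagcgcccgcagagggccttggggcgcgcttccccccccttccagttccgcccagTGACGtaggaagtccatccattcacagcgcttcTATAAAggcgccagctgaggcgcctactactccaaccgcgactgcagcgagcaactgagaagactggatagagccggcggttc
Egr2, chr10:67537619-67537918, plus strand: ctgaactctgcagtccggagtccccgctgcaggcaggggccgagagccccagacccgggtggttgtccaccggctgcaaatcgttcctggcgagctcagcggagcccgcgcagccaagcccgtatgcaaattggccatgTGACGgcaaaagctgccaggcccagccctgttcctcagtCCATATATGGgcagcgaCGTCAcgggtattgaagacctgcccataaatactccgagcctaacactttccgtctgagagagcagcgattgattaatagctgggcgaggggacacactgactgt
Egr4, chr6:85513540-85513839, minus strand: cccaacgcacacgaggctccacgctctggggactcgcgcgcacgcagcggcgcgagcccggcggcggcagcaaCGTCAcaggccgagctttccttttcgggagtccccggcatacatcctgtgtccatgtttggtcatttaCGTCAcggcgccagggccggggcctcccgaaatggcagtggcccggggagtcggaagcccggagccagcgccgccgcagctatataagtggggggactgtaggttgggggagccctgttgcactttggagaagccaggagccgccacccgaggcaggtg
Junb, chr8:84978699-84978998, minus strand: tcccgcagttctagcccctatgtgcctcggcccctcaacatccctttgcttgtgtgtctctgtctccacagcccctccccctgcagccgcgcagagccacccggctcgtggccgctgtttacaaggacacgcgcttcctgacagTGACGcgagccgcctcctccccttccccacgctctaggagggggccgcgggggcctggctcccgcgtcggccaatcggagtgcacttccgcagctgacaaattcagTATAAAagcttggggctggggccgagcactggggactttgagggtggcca
Jun, chr4:95052173-95052472, minus strand: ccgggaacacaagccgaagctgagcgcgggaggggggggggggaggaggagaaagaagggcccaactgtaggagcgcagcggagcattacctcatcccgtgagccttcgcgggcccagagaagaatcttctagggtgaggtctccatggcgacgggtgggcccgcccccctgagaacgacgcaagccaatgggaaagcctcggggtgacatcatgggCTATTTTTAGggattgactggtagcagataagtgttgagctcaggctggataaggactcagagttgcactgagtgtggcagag

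TGACG occurred in the windows of Fos, Fosb, Junb, Egr2, Egr4, Npas4 and Nr4a1, and in 20.8% of all 32851 windows of the table. A gene was counted if any of its windows matched. Egr2 alone had several, which overlap in part, and its windows 1 and 2 held no TGACG. The window of Jun held none and instead a MEF2 site, 33 bases before the start, a motif of 0.557% of windows. A CArG box, found in 1.63% of windows, lay 72 bases before the start in the Egr2 window shown. Of the 5 windows listed for that gene, all but window 1 held a CArG box. TATAAA, found in 13.6% of windows, lay 33 bases before the start of Fos and at the start itself in Junb. The EGR site, in 5.55% of windows, occurred in Fosb and Nr4a1. No window of the 8 genes searched held TGACGTCA (1.79% of all windows) or TGANTCA (7.81%). A match describes letters in this window and is no evidence of binding.

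The genes differed in how far they spread from array to array once group means were removed. In cortex the residual standard deviation was 0.54 for Arc, 0.56 for Npas4, 0.51 for Fos and 0.48 for Egr2 (log2 signal), all above 98% of tested probes, whose median was 0.19. It was 0.22 for Jun and 0.23 for Egr1. In hippocampus Fos (0.56), Egr2 (0.53), Fosb (0.52), Npas4 (0.45) and Arc (0.44) again lay among the most variable probes, whereas the value for Jun, 0.15, was below the median of 0.21.

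**Figure D1:**
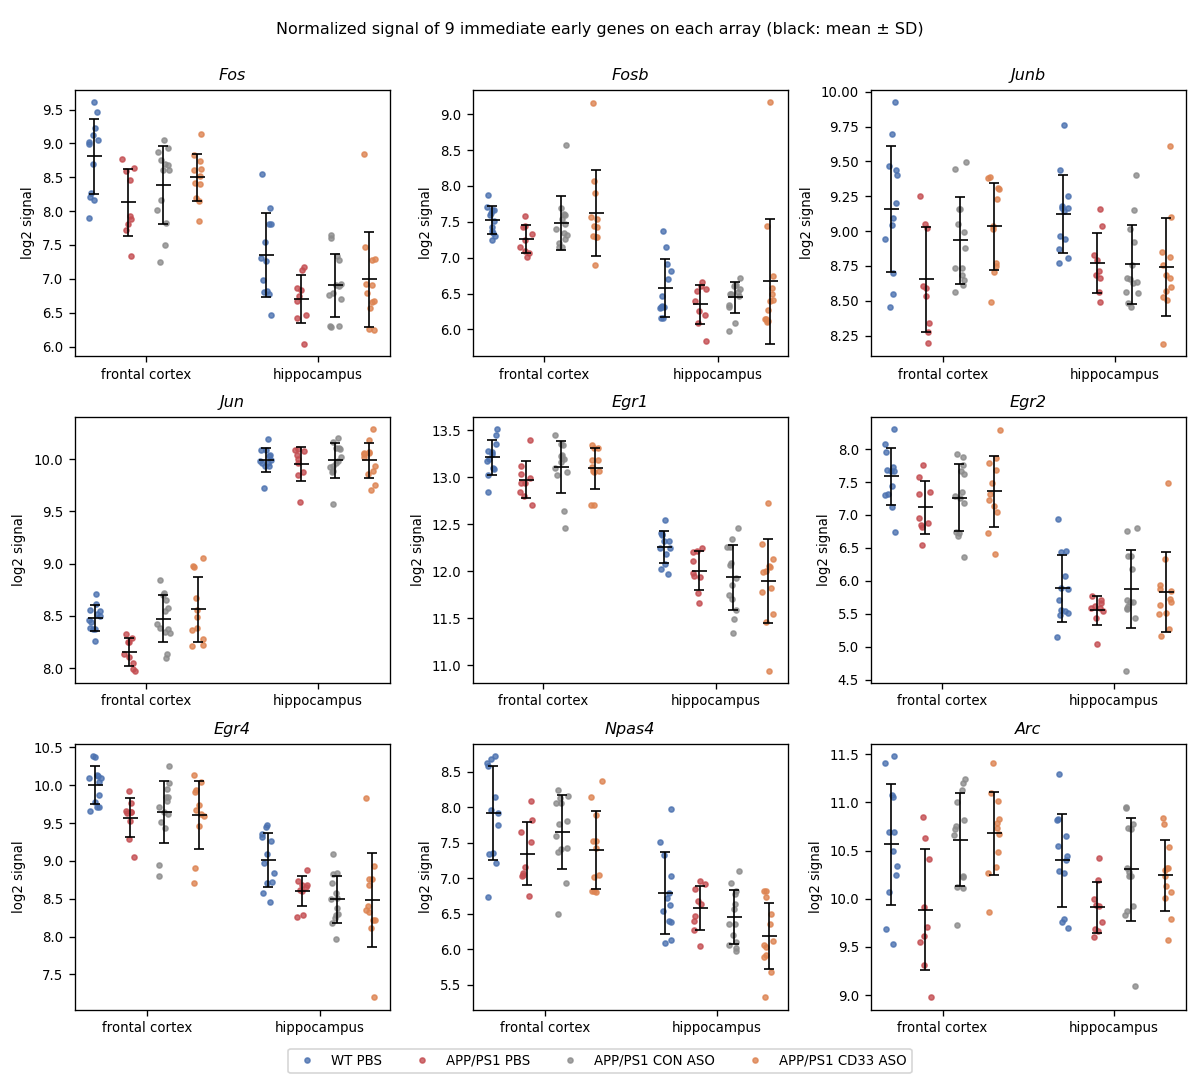
Normalized log2 signal (y axis) of 9 genes on every array, by tissue and group (colours), with black bars for the mean ± SD of each group. Jun sits near 10 in hippocampus and near 8.5 in cortex, Fos and the Egr genes sit lower in hippocampus, and in cortex the APP/PS1 PBS group has the lowest mean of the 4 groups for all 9 genes.

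The comparison of APP/PS1 with WT mice, both given PBS, addresses the genotype. In cortex 5 of the 9 genes fell in APP/PS1 mice and none rose, where 10.7% of tested probes were lower and 19.3% were called in either direction. The fallen genes were Fos, Jun and Junb among the AP-1 subunits, Egr4, and Arc. The median difference of the 9 genes was -0.47 against -0.02 over all genes (log2 scale).

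Fos ranged from 7.90 to 9.61 in WT cortex, with a median of 9.01, and from 7.34 to 8.77 in APP/PS1 cortex, with a median of 7.93 (log2 signal). All 9 APP/PS1 arrays lay below the WT median, although the groups overlapped. The difference was -0.68 ± 0.22 (SE, n = 9 and 12; 1.60-fold lower, adjusted p = 0.0237). Junb, whose product pairs with Fos proteins, ranged from 8.45 to 9.92 (median 9.15) in WT and from 8.20 to 9.25 (median 8.59) in APP/PS1 mice. It differed by -0.51 ± 0.16 (adjusted p = 0.019), with 8 of 9 APP/PS1 arrays below the WT median.

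Jun differed least in size among the fallen genes but most clearly against its spread. Its range was 8.26 to 8.71 (median 8.48) in WT and 7.98 to 8.33 (median 8.14) in APP/PS1 cortex, so that the groups overlapped only between 8.26 and 8.33. The difference was -0.33 ± 0.09 (1.25-fold lower, adjusted p = 0.009). Arc ranged from 9.53 to 11.48 (median 10.59) in WT and from 8.97 to 10.85 (median 9.71) in APP/PS1 cortex. With 7 of 9 arrays below the WT median it differed by -0.68 ± 0.24 (adjusted p = 0.0368). Egr4 ranged from 9.66 to 10.39 (median 10.07) in WT and from 9.05 to 9.92 (median 9.65) in APP/PS1 cortex. All 9 arrays were below the WT median, and the difference was -0.43 ± 0.15 (adjusted p = 0.0432).

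The other 4 genes had negative differences that did not pass the test. They were -0.24 ± 0.10 for Egr1 (adjusted p = 0.083), -0.47 ± 0.20 for Egr2 (0.102), -0.57 ± 0.24 for Npas4 (0.089) and -0.26 ± 0.16 for Fosb (0.269). In each of them 8 of 9 APP/PS1 arrays lay below the WT median, and the share of all probes with as many was not computed. The count of 5 was sensitive to single arrays: leaving out each of the 45 in turn gave 2 to 6, the lowest without APP/PS1 PBS replicate 3, and 3 without any 1 of APP/PS1 PBS replicates 1 and 7 or WT PBS replicates 4, 6, 7, 9 and 10. Jun and Junb kept an adjusted p of at most 0.043 in all 45 of these fits, Fos lost its call in 1, Arc in 11 and Egr4 in 12. Without any filter on dim probes 3 genes were called.

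Cell type markers moved between the same groups. The summed linear signal of 8 microglial genes was 2314 to 2815 in WT cortex and 7145 to 11190 in APP/PS1 PBS cortex, and 8 of 8 rose. Of 7 interneuron genes 3 fell, namely Pvalb (-0.25), Npy (-0.31) and Sst (-0.30), and the summed interneuron signal was 31600 to 37287 in WT against 26313 to 33035 in APP/PS1 cortex. Of 8 astrocyte genes 5 rose and none fell, with a summed signal of 35154 to 40898 (median 37783) in WT and 40876 to 47562 (median 43331) in APP/PS1 cortex. Of 6 endothelial genes 2 rose, and their sum had a median of 5854 in WT and 6648 in APP/PS1 cortex. The part of these cell types in the differences above was not tested. Of 7 pan-neuronal genes 1 rose, Thy1, and 1 fell, Syt1 (-0.13). A fragment of the Thy1 promoter drives both transgenes, and whether the Thy1 probe reads them was not checked.

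Other activity-linked genes gave mixed directions in APP/PS1 cortex. Of 24 tested immediate early genes outside the 9, 3 rose and 3 fell, with a median of -0.09. Dusp1, a phosphatase that switches off mitogen-activated kinases, fell by 0.67 (adjusted p = 0.0035), whereas Atf3, a stress-induced factor, rose by 0.69 (adjusted p = 0.00014) and the RNA-binding protein Zfp36 rose by 0.57 (adjusted p = 0.0012). Of 22 delayed activity-induced genes 5 fell and 2 rose. The secretory granule genes Scg2 (-0.32) and Vgf (-0.37) were among those that fell, and Igf1, also made by microglia, rose by 1.56.

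In hippocampus none of the 9 genes passed the test for APP/PS1 against WT, where 2.49% of probes were called. All 9 differences were negative, with a median of -0.34 against 0.01 over all genes. At an unadjusted p under 0.05 limma gave 4 of the 9, Junb (-0.35 ± 0.12, adjusted p = 0.123), Fos (-0.64 ± 0.24, 0.152), Arc (-0.49 ± 0.19, 0.169) and Egr4 (-0.42 ± 0.18, 0.212), and 2396 of 14449 probes in all. In 5 genes, Fos, Arc, Egr1, Egr2 and Egr4, all 9 APP/PS1 arrays lay below the WT median. The share of all probes with this order was not computed, and these genes varied together over arrays. Hippocampal Fos ranged from 6.46 to 8.55 (median 7.29) in WT and from 6.04 to 7.17 (median 6.75) in APP/PS1 mice. Jun was at -0.04 ± 0.07, with a 95% interval of -0.17 to 0.09. The effect of genotype was not shown to differ between the tissues for any of the genes. Jun came nearest, with a difference of -0.33 in cortex, -0.04 in hippocampus and 0.29 ± 0.11 between them (unadjusted p = 0.0067, adjusted p = 0.114), where 3.38% of probes were called. Choroid plexus signal was uneven, its sum over 6 genes ranging from 2432 to 37206 (median 27473) in WT and from 2271 to 31124 (median 6906) in APP/PS1 PBS hippocampus. Its part in the hippocampal values was not tested.

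**Figure D2:**
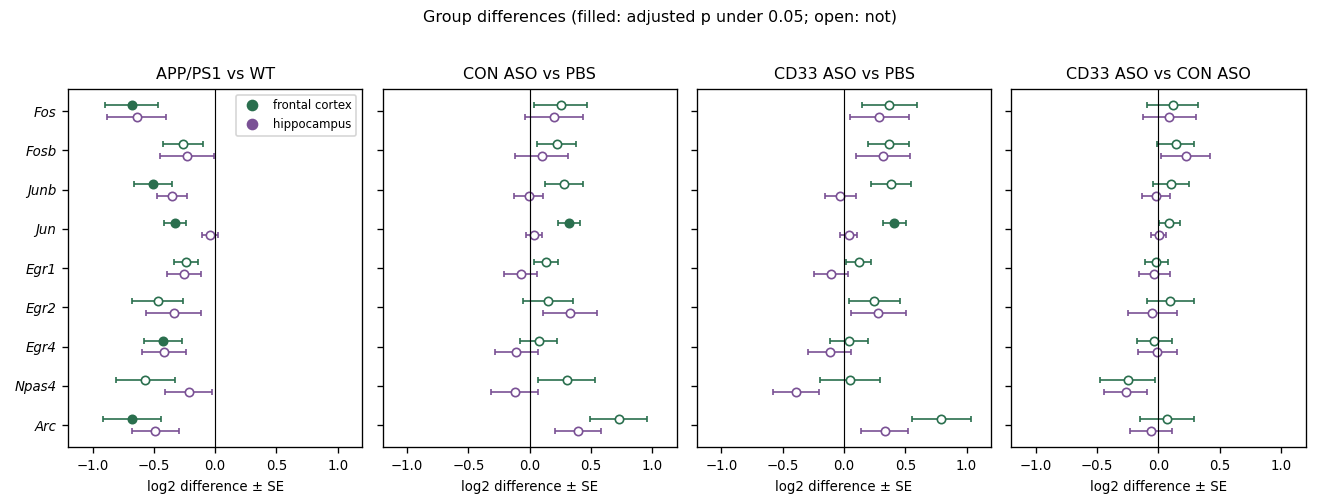
Log2 differences ± SE (x axis) of the 9 genes (y axis) in 4 comparisons, in frontal cortex (green) and hippocampus (purple), with filled points for an adjusted p under 0.05. All 18 values of APP/PS1 vs WT are negative and 5 cortical ones are filled, and Jun in cortex is the filled point of both comparisons of an oligonucleotide with PBS.

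The comparison of CD33 ASO with CON ASO in APP/PS1 mice addresses the lowering of CD33. None of the 9 genes was called in cortex, where 0.153% of probes were called and 1405 of 14346 had an unadjusted p under 0.05, or in hippocampus, where 0.118% were called and 618 of 14449 had an unadjusted p under 0.05. Unadjusted p-values were above 0.05 for all 9 genes in both tissues. Fos was at 0.11 ± 0.20 in cortex (95% interval -0.29 to 0.51) and 0.09 ± 0.22 in hippocampus. Arc was at 0.07 ± 0.22 in cortex, with an interval of -0.36 to 0.50, and at -0.06 ± 0.17 in hippocampus. The largest differences in size were those of Npas4, -0.25 ± 0.22 in cortex and -0.27 ± 0.17 in hippocampus (adjusted p = 0.73 and 0.99). The narrowest interval was that of hippocampal Jun, from -0.12 to 0.12. Cd33 itself, the target, differed by -0.71 ± 0.14 in cortex and -0.92 ± 0.11 in hippocampus, with adjusted p = 0.0147 and 1.9e-07.

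Each oligonucleotide group was also set against APP/PS1 mice given PBS, the same 9 mice that enter the genotype comparison, so the 3 comparisons share controls. In cortex Jun rose in both, the single call among the 9 genes in each, where 1.15% and 0.516% of probes were higher and 2.63% and 1.36% were called. All 9 differences were positive in each, against a median of 0.0022 and 0.00025 over all probes. At an unadjusted p under 0.05 limma gave Jun and Arc for CON ASO (2169 of 14346 probes in all). For CD33 ASO it gave these, Junb (0.38 ± 0.16, adjusted p = 0.293) and Fosb (0.36 ± 0.17, 0.343), and 1768 probes in all. Most of the 9 genes varied together over arrays. With CON ASO, Jun ranged from 8.10 to 8.84 (median 8.42) against 7.98 to 8.33 (median 8.14) with PBS, a difference of 0.32 ± 0.09 (adjusted p = 0.042). With CD33 ASO it ranged from 8.21 to 9.06 (median 8.49), a difference of 0.41 ± 0.09 (adjusted p = 0.0134), and none of 11 arrays lay below the PBS median. The call for CON ASO was lost with chip as a block, with median centring, without a filter and in the submitters' value table (0 genes each), and in 13 of 45 fits with 1 array left out (adjusted p up to 0.085). That for CD33 ASO was lost where the compared groups were fitted alone (adjusted p = 0.062). Within days 1 to 4 the cortical Jun difference was 0.31, 0.46, 0.07 and 0.42 for CON ASO and 0.33, 0.47, 0.28 and 0.80 for CD33 ASO. The PBS group held just 2, 2, 2 and 3 arrays on these days. In the joint fit of both tissues the Jun difference was 0.33 in cortex and 0.03 in hippocampus for CON ASO, and 0.42 and 0.04 for CD33 ASO. The effects were not shown to differ between tissues (adjusted p = 0.283 and 0.191), where 0.0672% and 0.047% of probes were called.

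Arc had the largest difference in both comparisons and passed in neither. It ranged from 9.73 to 11.25 (median 10.73) with CON ASO and from 9.86 to 11.41 (median 10.74) with CD33 ASO, against a PBS median of 9.71. No array of either oligonucleotide group lay below that median, and the groups overlapped. The differences were 0.73 ± 0.23 (adjusted p = 0.083) and 0.79 ± 0.24 (adjusted p = 0.092). Without APP/PS1 PBS replicate 9 Arc passed beside Jun in each (adjusted p = 0.041 and 0.046). Within days 1 to 4 the cortical Arc difference was 0.55, 0.00, 0.62 and 1.41 for CON ASO and 0.42, 0.85, 0.38 and 1.23 for CD33 ASO, again with 2, 2, 2 and 3 PBS arrays. In hippocampus none of the 9 passed, with 1.29% and 0.505% of probes called. There 1928 and 1800 of 14449 probes had an unadjusted p under 0.05, among them Arc for CON ASO (0.39 ± 0.19) and Npas4 for CD33 ASO (-0.39 ± 0.19).

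Other lists moved in the comparison of CON ASO with PBS. Glucocorticoid targets, genes induced by stress hormone, had 5 of 14 higher in each tissue and none lower, among them the lipid droplet gene Plin4 (2.10 in cortex and 2.10 in hippocampus), Sult1a1 (0.78 and 0.97) and the kinase gene Sgk1 (0.45 and 0.64). None of 14 was called for CD33 ASO against PBS in either tissue. Calls against PBS for CON ASO alone do not show that the oligonucleotides differ in these genes. Of the other immediate early genes 0 of 24 passed in cortex for either oligonucleotide. Of the delayed genes Vgf (0.36) and Errfi1 (0.19) rose in cortex with CON ASO. Spink8 (0.53) and Wfs1 (0.37), from the list of CA1 and CA3 genes, were also higher in CON ASO cortex, and the summed signal of that list was 5205 to 7200 against 5308 to 6349 with PBS. Of 7 oligodendrocyte genes 3 were lower in cortex in each of the comparisons with PBS. The part of these genes and cells in the Jun and Arc values was not tested.

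Collection day was the technical factor of interest for genes that respond to handling. No probe in either tissue passed the test of day beside the group means (0% called), with 992 of 14346 probes in cortex and 1456 of 14449 in hippocampus at an unadjusted p under 0.05. Day 2 had the lowest mean deviation from the group means for 7 of the 9 genes in cortex and 8 in hippocampus. Most of these genes varied together over arrays, and the share of all probes lowest on day 2 was not computed. In cortex Fos deviated by 0.30 on day 1, -0.34 on day 2, 0.01 on day 3 and -0.05 on day 4 (unadjusted p = 0.0269, adjusted p = 0.705). Egr4 deviated by 0.21, -0.25, -0.03 and 0.00 on the same days (unadjusted p = 0.0186, adjusted p = 0.705), and Arc by 0.18, -0.32, 0.06 and 0.01 (unadjusted p = 0.189). In hippocampus Arc deviated by 0.09, -0.34, 0.06 and 0.14 (unadjusted p = 0.0378, adjusted p = 0.467). Jun followed another order in cortex, at -0.12, 0.02, -0.07 and 0.16 (unadjusted p = 0.0027, adjusted p = 0.705), and in hippocampus its means lay between -0.01 and 0.01. In all, 3 of the 9 genes in cortex (Jun, Egr4 and Fos) and 1 in hippocampus (Arc) had an unadjusted p under 0.05, where 6.91% and 10.1% of probes did. Day and tissue gave 1 interaction among 14884 probes and none among the 9 genes. The chip, of which each tissue used 6, was associated with 27.9% of probes in cortex and 26.6% in hippocampus but with 0 of the 9 genes in either.

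The size of the genotype difference was read within each day as well. In each tissue days 1 to 4 held 2, 2, 2 and 3 APP/PS1 PBS arrays and 3, 2, 3 and 4 WT arrays. Each value of a day thus rests on few mice and is given without an SE. In cortex Jun differed between APP/PS1 PBS and WT mice by -0.35, -0.30, -0.30 and -0.34 on days 1 to 4, lower on all 4. Arc instead differed by -0.54, 0.18, 0.04 and -1.71. Junb differed by -0.55, 0.24, 0.03 and -1.23, and Fos by -0.97, 0.50, -0.45 and -1.27. On day 4 the cortical Arc values of the 3 APP/PS1 mice were 8.97, 9.31 and 9.62, and those of the 4 WT mice were 10.49, 11.06, 11.08 and 11.41, with no overlap. Junb likewise did not overlap on that day, at 8.20, 8.28 and 8.34 against 9.20, 9.44, 9.47 and 9.92. The share of all probes without overlap on that day was not computed, and Arc and Junb varied together over cortical arrays. On days 2 and 3 the cortical differences of Arc and Junb were between 0.03 and 0.24. In hippocampus Arc differed by -0.24, -0.23, -0.29 and -0.91 over the days. The difference between days was tested in a fit chosen after these values were seen. It called 0 of 14346 probes in cortex, 669 of them at an unadjusted p under 0.05. Among the genes Junb had an unadjusted p of 0.00094, Arc 0.0055, Fos 0.0086 and Jun 0.99 (adjusted p = 0.959 for the first 3), and in hippocampus it called 0 of 14449, 819 of them at an unadjusted p under 0.05. Within chips, which held 1 or 2 APP/PS1 and 2 WT arrays each, the cortical difference of Jun was negative on 6 of 6 chips and that of Arc on 5 of 6.

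**Figure D3:**
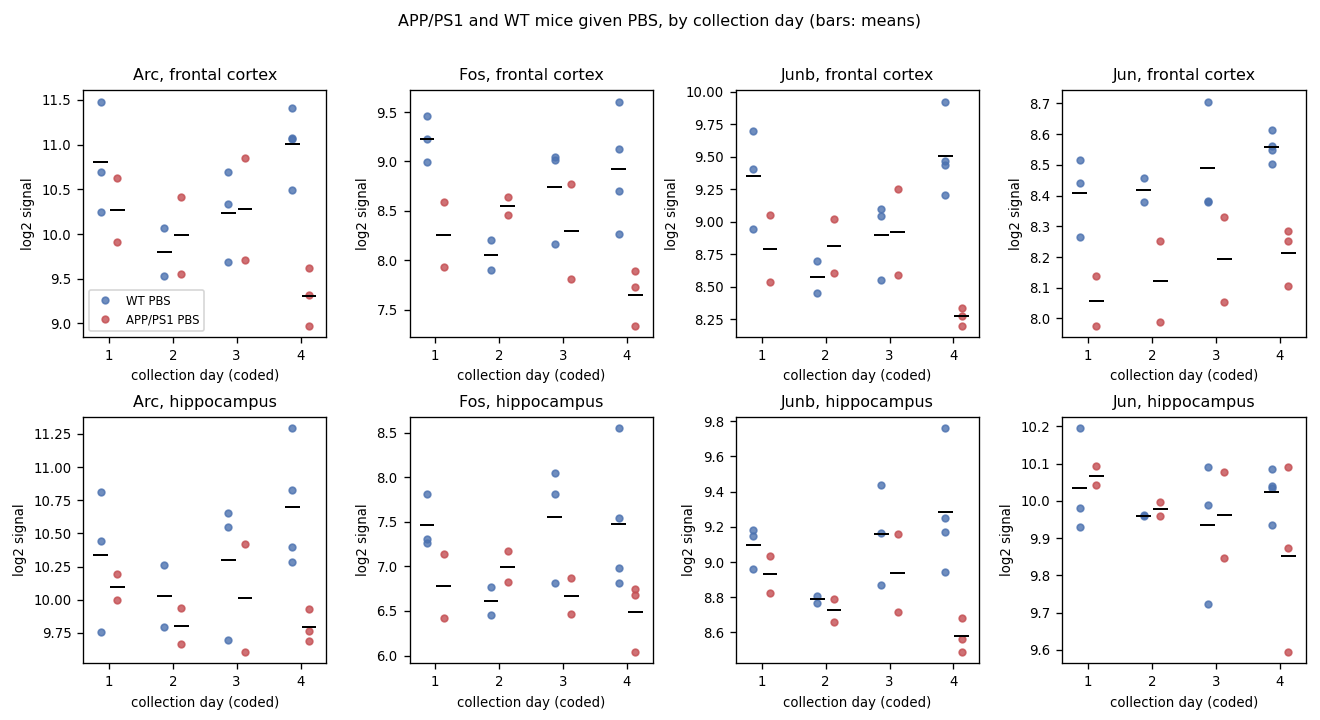
Log2 signal (y axis) of Arc, Fos, Junb and Jun in WT and APP/PS1 mice given PBS, by coded collection day (x axis), in cortex (top) and hippocampus (bottom), with a point per array and bars for means. Cortical Arc and Junb separate on day 4 and overlap on days 2 and 3, while cortical Jun is lower in APP/PS1 mice on all 4 days.

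Within each tissue the genes were correlated over arrays after group means were removed, as 36 pairs per tissue. Over all 36 pairs 29 correlations were positive in cortex and 30 in hippocampus, with a median r of 0.34 and 0.51. The 28 pairs without Jun were set apart after the data were seen, so their higher values follow in part from that choice. All 28 were positive in both tissues, with a median r of 0.45 in cortex (0.15 to 0.89) and 0.61 in hippocampus (0.09 to 0.86). In a permutation test within groups, adjusted over all 72 pairs, 20 of these 28 passed in cortex and 27 in hippocampus. The lowest r among those that passed was 0.33 in cortex and 0.36 in hippocampus. Of all 36 pairs, with Jun included, the same 20 and 27 were at or above it. Over all pairs of the tested genes, 9958 in cortex and 10042 in hippocampus, 9.21% and 8.38% had an r at or above those values, and the median r was 0.01 and -0.0014. With chip means taken out as well, 6.19% and 5.75% of all pairs did. Of the 8 pairs with Jun, 1 and 0 passed. By Spearman's rho the counts were 24 and 26 of the 28, and 2 and 0 of the 8.

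Several pairs had high correlations in both tissues. Junb and Arc, a transcription factor and a synaptic gene, gave r = 0.89 in cortex (Spearman's rho = 0.87, n = 45) and 0.77 in hippocampus (rho = 0.81, n = 46). Egr1 and Egr4 gave 0.87 (rho = 0.86) and 0.86 (rho = 0.82). Fos and Egr2 gave 0.80 in both tissues (rho = 0.80 and 0.71), and Fos and Arc 0.80 (rho = 0.80) and 0.67 (rho = 0.67). Each of these had a permutation p of 1e-05, the smallest the 100000 resamples can give, for r in both tissues. Leaving out the 2 arrays farthest from the median of the first gene left r between 0.63 and 0.87 for these 4 pairs. In cortex Npas4 gave at most 0.55 (with Fos) and Fosb at most 0.48 (with Egr4). In hippocampus the highest was 0.47 for Npas4 (with Egr4) and 0.63 for Fosb (with Fos).

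In cortex the genes formed tighter and looser ties. Egr1 and Arc gave 0.31 (rho = 0.34), and Egr1 and Junb 0.27 (rho = 0.34) while Egr1 and Egr4 gave 0.87 and Junb and Arc 0.89. In hippocampus the same pairs gave 0.57 and 0.61. Whether these correlations differ between tissues was not tested. Fos and Fosb gave 0.63 in hippocampus, and 0.32 without the 2 arrays farthest from the median of Fos (adjusted p = 0.060). The call of this pair by r was thus lost without those arrays, while rho over all arrays, 0.39, passed (adjusted p = 0.0176). Over all pairs, leaving out 2 arrays lowered the number that passed from 21 to 18 in cortex and from 27 to 21 in hippocampus.

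Jun gave r between -0.39 and 0.08 with the other 8 genes in cortex and between -0.18 and 0.11 in hippocampus. The pair that passed by r was Jun with Egr1 in cortex, r = -0.39 (adjusted p = 0.0218), which became -0.25 without the 2 arrays farthest from the median of Jun (adjusted p = 0.169). The call by r was thus lost without those arrays, while rho over all arrays, -0.37, passed (adjusted p = 0.0267). Jun and Fosb in cortex passed by rho over all arrays (-0.34, adjusted p = 0.0479) and by r without the 2 arrays farthest from the median of Fosb (-0.44, adjusted p = 0.0167), but not by r over all arrays (-0.19, adjusted p = 0.424). Taking out day means as well lowered the median r over all 36 pairs from 0.34 to 0.27 in cortex and from 0.51 to 0.48 in hippocampus. Taking out chip means in place of day means gave 0.40 and 0.58. Within single days it was 0.11, 0.62, 0.31 and 0.34 in cortex and 0.20, 0.42, 0.51 and 0.71 in hippocampus. The number of probes detected on an array moved with Egr1 (r = 0.54), Egr4 (0.47) and Fos (0.45) in cortex (adjusted p = 0.0205 for each over 18 relations, while no rho passed, with adjusted p = 0.052 to 0.073 for these 3) and with none of the genes in hippocampus.

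**Figure D4:**
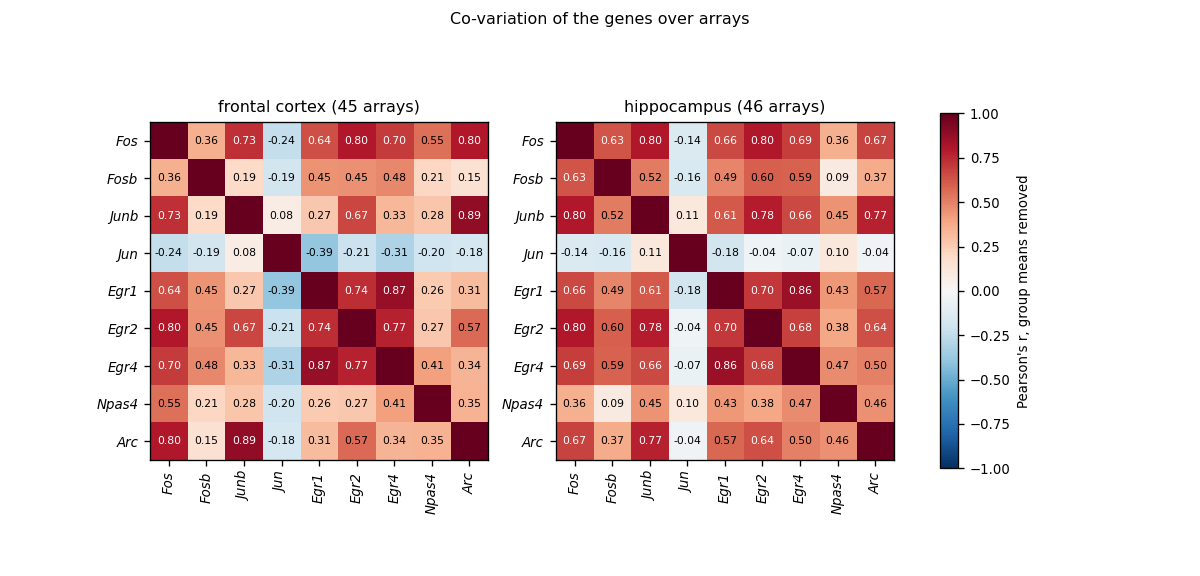
Pearson's r (colour and number) between 9 genes over 45 cortical and 46 hippocampal arrays with group means removed. All cells without Jun are positive, up to 0.89 for Junb and Arc in cortex, while the row of Jun stays between -0.39 and 0.11.

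Outside the 9, the genes most like them were ranked by Pearson's r with the mean of the scaled genes, as a description, over 9949 genes in cortex and 10033 in hippocampus. In cortex the first were Dusp6 (r = 0.66) and Dusp1 (0.61), both phosphatases of mitogen-activated kinases, followed by Sostdc1 (0.53), Rundc1 (0.52), the clock gene Per1 (0.51), the kinase gene Plk3 (0.48), Nfkbid (0.48) and Tnfrsf25 (0.47). In hippocampus they were the nuclear factor gene Csrnp1 (0.63), Atf4 (0.61), Snrpd1 (0.58), Plk3 (0.57), Rpl23a (0.57), Mageh1 (0.57), Midn (0.55) and Coq10b (0.55). Plk3 stood on both lists. All arrays of a tissue share chips and a normalization, which these values include.

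The 44 mice with both tissues allowed the genes to be followed from cortex to hippocampus. With group means removed, the level of a gene in cortex was correlated with its level in hippocampus for 8 of 9 genes in a permutation test adjusted over 9 relations, and for 7, all but Fosb and Jun, when adjusted over all 9699 genes tested in both tissues. Of these genes 16.3% passed, nearly all of them positive (1578 of 1585). The median r was 0.65 over the 9 genes and 0.19 over all genes. Npas4 gave 0.73 (rho = 0.71), Arc 0.69 (rho = 0.68), Egr4 0.67 (rho = 0.63), Junb 0.66 (rho = 0.68), Egr2 0.65 (rho = 0.58), Egr1 0.65 (rho = 0.67) and Fos 0.65 (rho = 0.71), each with p = 1e-05 for r (adjusted p = 1.3e-05). Without the 2 mice farthest from the cortical median these 7 kept r between 0.57 and 0.71. Jun gave 0.11 (rho = 0.02, adjusted p = 0.53). Mice that shared a chip in cortex also shared one in hippocampus, in 6 sets of 6 to 8 mice. With chip means taken out as well, an alternative chosen after the data were seen, r was 0.73 for Npas4, 0.72 for Egr4, 0.70 for Arc, 0.69 for Fos, 0.68 for Junb, 0.67 for Egr1, 0.66 for Egr2, 0.62 for Fosb and 0.17 for Jun. The median was then 0.68 over the 9 genes and 0.10 over all genes.

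Fosb gave 0.61 (adjusted p = 0.0094 over 9 relations and 0.0515 over all genes), which fell to 0.25 without the 2 farthest mice (p = 0.15). The Pearson correlation thus did not pass without those mice, while rho over all 44, 0.33, passed (adjusted p = 0.0416). A single mouse stood far above the rest for Fosb, with 9.16 in cortex (CD33 ASO replicate 1) and 9.16 in hippocampus (CD33 ASO replicate 11), against group medians of 7.45 and 6.41. Its hippocampal Egr1 (12.72), Egr2 (7.49), Egr4 (9.83) and Fos (8.85) were also the highest of all 46 arrays. It was the only CD33 ASO mouse of day 4 in hippocampus. Removing day means left the median r at 0.63. Within days 1 to 4, of 12, 9, 11 and 12 mice, the median r was 0.50, 0.79, 0.53 and 0.60. Npas4 was the steadiest, at 0.72, 0.74, 0.78 and 0.81. Single genes departed from these medians: Fosb ran from -0.63 on day 1 to 0.90 on day 4, Jun gave 0.21, 0.25, 0.39 and -0.21 over the days, and on day 3 Egr2 gave -0.15 and Egr1 0.04.

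**Figure D5:**
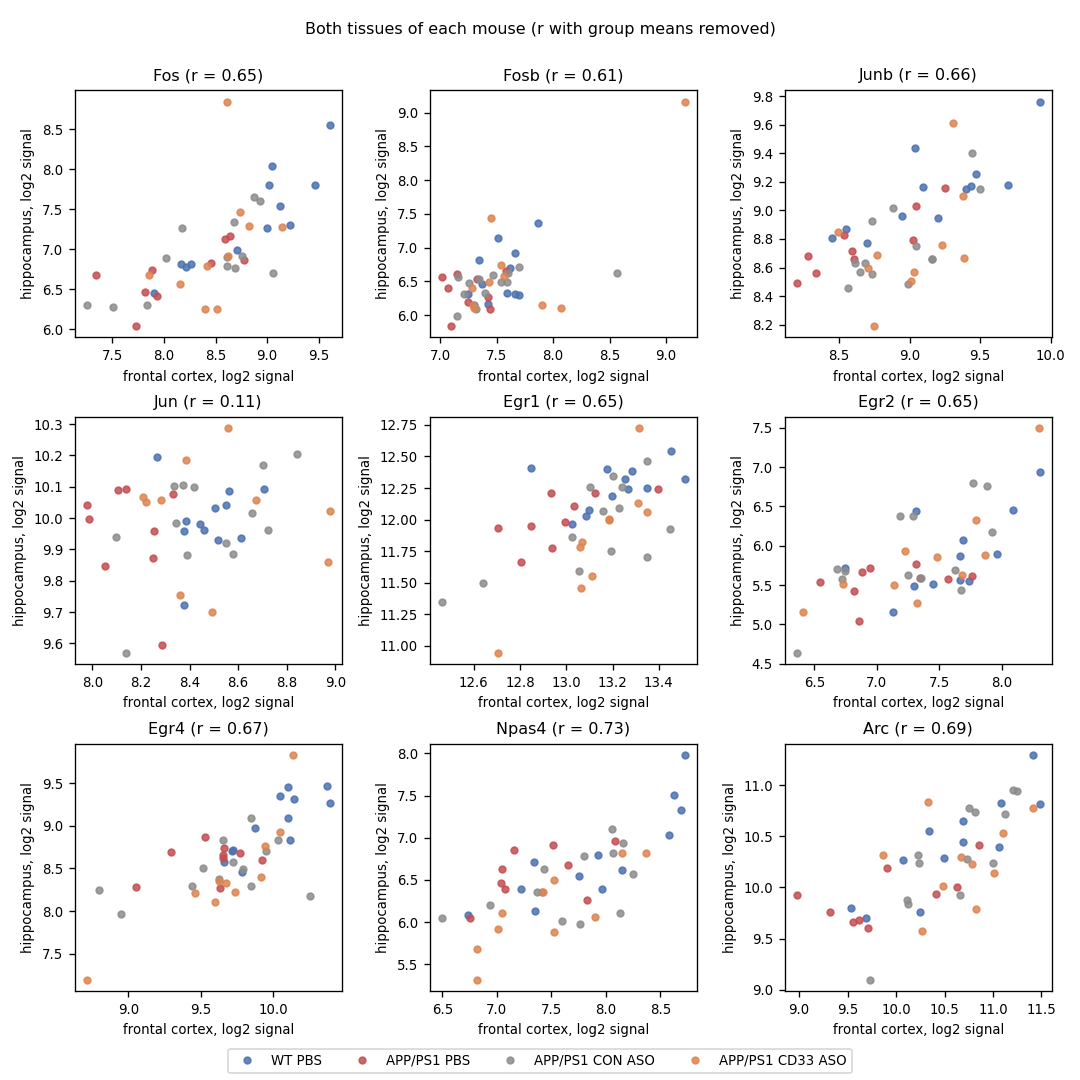
Log2 signal of each gene in frontal cortex (x axis) against hippocampus (y axis) of the same mouse, with a point for each of 44 mice coloured by group. The points of Arc, Npas4, Fos, Junb and the Egr genes rise together, those of Jun do not, and 1 CD33 ASO mouse stands apart for Fosb at 9.16 in both tissues.

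Set against cortex within mice, hippocampus had lower levels of 6 of the 9 genes and a higher level of Jun, as the mean over groups in a joint fit of all 91 arrays that called 74% of probes (34.2% lower and 39.8% higher). No chip held both tissues, so tissue and chip cannot be told apart in any of these differences. The difference for Egr2 was -1.34 ± 0.09 (2.53-fold), for Fos -1.28 ± 0.10 (2.43-fold), for Egr1 -0.98 ± 0.05 (1.97-fold), for Egr4 -0.92 ± 0.07, for Npas4 -0.87 ± 0.09 and for Fosb -0.75 ± 0.08 (log2 scale, adjusted p at most 1.8e-13). Egr1, Egr2, Egr4 and Npas4 were lower in hippocampus in 44 of 44 mice, Fos in 43 and Fosb in 42. Hippocampal Egr2 was near background, being detected on 41 of 46 arrays.

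Jun averaged 10.04 in hippocampus and 8.33 in cortex, a rise of 1.71 ± 0.04 (3.27-fold, adjusted p = 9.9e-64), and was higher in 44 of 44 mice. Every hippocampal array, from 9.57 to 10.29 in the separate normalizations, lay above every cortical one, from 7.98 to 9.06. Arc differed by -0.11 ± 0.09, with a 95% interval of -0.29 to 0.07, and Junb by 0.06 ± 0.06, with an interval of -0.06 to 0.17. Hippocampus was lower in 27 and 19 of the 44 mice for these genes. The same 7 genes passed, in the same directions, within the WT mice (55.5% of probes called), the APP/PS1 mice given PBS (50.7%), those given CON ASO (57.6%) and those given CD33 ASO (48.9%). With each tissue normalized on its own Arc passed as well (-0.22, adjusted p = 0.022). The tissues also differed in cell make-up. All 7 interneuron genes tested were lower in hippocampus (median -0.62), all 8 microglial genes were lower (median -0.45) and 6 of 6 choroid plexus genes were higher (median 2.63), and their part in the tissue differences was not tested.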

How the data were processed

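Bead intensities and detection p-values of 25697 probes were those the authors deposited for 91 arrays, processed with BeadStudio, GenomeStudio and Partek per the submitters' processing notes, and 25.1% of intensities were below 0, so a background had been subtracted. Their versions and settings are not given in the sources used here. A deposited value table of 17885 probes (log2 by comparison with the intensities, array median 7.43 in cortex and 7.23 in hippocampus, no centring by gene) served as an alternative.

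The members and lists were chosen with earlier results of these data known. Each tissue was background-corrected with the detection p-values, quantile normalized and put on a log2 scale with an offset of 16 (limma 3.58.1 in R 4.3.3). Probes with a detection p under 0.05 on at least 9 arrays of a tissue were kept, 14346 in cortex and 14449 in hippocampus. Each tissue was fitted with 1 mean per group over 4 groups and eBayes with trend and robust settings. P-values were adjusted over all probes by Benjamini-Hochberg at 0.05, and no p was adjusted over the 10 genes alone. Collection day and chip were tested beside the groups by an F test. Tissues were compared in a joint normalization of 91 arrays (14884 probes) in which arrays of 1 mouse were blocked (correlation within a mouse 0.17). Intervals are the estimate ± 1.96 SE. Correlations used a two-sided permutation test within groups with 100000 resamples, and as a background the same was computed over all tested genes, 1 probe per gene (Python 3.11.15, scipy 1.17.1). Fits were tested on simulated data. The text names the 9 measured genes by their brightest probe, Cd33 and Thy1, the 8 genes most like them in each tissue, and up to 4 called genes of smallest p per list. The number of arrays limits the precision.

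GEO's labels give the groups the same replicate numbers, but not every same-numbered pair deviated together: in each of the 8 comparisons at least 1 pair had a correlation under -0.1, as low as -0.42, so the numbers were not taken to pair mice. The median over same-numbered pairs was highest for CD33 ASO and CON ASO, 0.22 in hippocampus (-0.02 for other numbers, 6 of 12 arrays correlating best with their own number) and 0.15 in cortex (0.00, 3 of 11). It was 0.16 for APP/PS1 and WT and 0.16 for CON ASO and PBS in hippocampus, and at most 0.10 in the other 4 comparisons. Replicate numbers follow chip order, so some same-numbered arrays share a chip, most of those of CD33 ASO and CON ASO in hippocampus among them. The part of the chip in these correlations was not tested.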

Additional observations from a re-analysis of the deposited data

Results flagged for a closer look

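Each of the 9 measured genes was examined in each tissue in the APP/PS1 PBS group of 9 arrays, 18 sets in all, for an array far from the others by Dixon's ratio (critical value 0.493), which chance exceeds in about 1 of 20 sets. In 2 sets the lowest array stood apart. Hippocampal Egr2 was 5.04 in APP/PS1 PBS replicate 5, with the nearest array at 5.43 (ratio 0.531). Hippocampal Jun was 9.59 in APP/PS1 PBS replicate 1, with the nearest array at 9.85 (ratio 0.507).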

How the results depend on the processing

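The count of 5 genes lower in APP/PS1 cortex was 3 without a filter on dim probes. It was 0, 0, 1 and 2 within days 1 to 4 and 0, 1, 0, 0, 0 and 0 within chips 1 to 6, and 2 to 6 with single arrays left out. For CON ASO against PBS in cortex the count of 1 became 0 with median centring, the submitters' value table, no filter and chip as a block, 0 within each day and within 5 of 6 chips, and 0 to 2 with single arrays left out. For CD33 ASO against PBS in cortex the count of 1 became 0 with the compared groups fitted alone, 0, 0, 0 and 2 within days and 0 within each chip, and 1 to 2 with single arrays left out. Within day 4 alone 1 gene, Fosb, was called in hippocampus for CD33 ASO against CON ASO and against PBS, beside 52 and 174 probes in all. There the CD33 ASO arm held 1 array against 4 and 3, from the mouse of highest Fosb, so these calls restate that array's value. Fits within a day or chip hold fewer arrays. The cause of the other shifts was not tested. With the replicate block the cortical APP/PS1 count was 6. The median correlation of cortical pairs was 0.11 on day 1 and 0.62 on day 2, that of hippocampal pairs 0.20 on day 1, and that between tissues 0.50 on day 1 and 0.79 on day 2. Of 5638 values of single genes 46 lost and 14 gained a call under an alternative. The 5638 include genes not called in the main fit, which cannot lose a call, so 46 of 5638 is no measure of how stable the calls are. Fits within a day or chip are not among them. Sign changed in 0 called and 93 uncalled values. Counts over all probes also moved: CD33 ASO against CON ASO in cortex from 22 to 1 with the compared groups alone, 42 with array weights, 43 with chip as a block and 51 with the replicate block, CON ASO against PBS in cortex from 377 to 226 without a filter and 752 with array weights, CD33 ASO against PBS in cortex from 195 to 90 with the compared groups alone and to 66.2% of it with median centring, and APP/PS1 against WT in hippocampus from 360 to 691 with chip as a block. In hippocampus CON ASO against PBS went from 187 to 323 with chip as a block, 379 with the replicate block and 477 with array weights, CD33 ASO against PBS from 73 to between 7 and 253 outside fits within a day or chip, and CD33 ASO against CON ASO from 17 to 11 with a stricter filter and with the compared groups alone. The tissue difference of APP/PS1 against WT went from 503 to 239 without the mouse block and 300 without a filter. Signal near background limits hippocampal Egr2. Pairs without Jun and the removal of chip means were chosen after the data were seen.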
